A study of Homo sapiens with 2 samples.

Results

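The genes described here are the 4 subunits of succinate dehydrogenase, which is complex II of the mitochondrial respiratory chain, and the 4 assembly factors named for it. They were chosen by symbol as SDHA, SDHB, SDHC, SDHD, SDHAF1, SDHAF2, SDHAF3 and SDHAF4. All 8 symbols matched an Ensembl gene identifier, out of 28303 genes listed. The family was picked with the difference of its genes between the libraries already known, so that difference is given as a description and nothing rests on it.

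RNA was sequenced from the human gastric cancer line HGC27, an established cell line, in 1 library of cells transfected with pcDNA3.1 carrying LINC01133 and 1 library of cells transfected with the control pcDNA3.1 plasmid. LINC01133 is a long non-coding RNA, and the comparison asks which transcripts differ when it is overexpressed. Transfection with Turbofect took place 48 h before harvest in both groups, which share the cell line, medium and vector backbone, and poly(A) RNA was selected. With 1 library per group there is no replicate check on any difference, and every interval is a 95% interval of counting error only.

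Succinate dehydrogenase oxidises succinate to fumarate in the tricarboxylic acid cycle and passes the electrons to ubiquinone in the inner mitochondrial membrane. SDHA carries the covalently bound flavin and the succinate site, SDHB carries the iron-sulfur clusters, and SDHC and SDHD form the membrane anchor where ubiquinone binds. SDHAF2 promotes the attachment of flavin to SDHA, SDHAF4 binds the flavinylated SDHA, and SDHAF1 and SDHAF3 act in the iron-sulfur maturation of SDHB. Loss of a subunit in inherited paraganglioma and in some gastrointestinal stromal tumours lets succinate accumulate, and succinate inhibits 2-oxoglutarate-dependent dioxygenases.

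The depth was 16302581 counted fragments in the overexpression library and 15666629 in the control library. Values are FPKM, fragments scaled to the exon length and to the depth, and log2 ratios were taken on FPKM + 1 with overexpression as the numerator. LINC01133 itself had 1.44 FPKM (1.13 to 1.81) with overexpression, against 0.0809 FPKM (0.0220 to 0.207) with the control plasmid, a ratio of 17.8 (6.66 to 67.0). These levels rest on 74 and 4 fragments. Its mean of 0.760 FPKM is below the mean FPKM of 1 set for counting, and on FPKM + 1 it was 2.26-fold higher. Of 12 gastric epithelial markers, 8 had values and all 8 were below 1 FPKM in both libraries, their summed level was 0.724 FPKM with overexpression and 0.582 FPKM with the control plasmid, and TFF2, KRT18 and MUC5AC were listed at 0 in both. Markers of the labelled gastric origin were thus near absent in both libraries. The 5 mesenchymal markers summed to 240 FPKM with overexpression and 218 FPKM with the control plasmid. Of these sums VIM alone held 210 FPKM with overexpression and 198 FPKM with the control plasmid. Of the 5 markers, 4 had a mean FPKM of at least 1. CDH2 was near absent, at 0.0744 FPKM with overexpression and 0.0516 FPKM with the control plasmid. The blood markers PTPRC and CD14 and the endothelial marker VWF were below 1 FPKM in both libraries, while of the fibroblast markers COL1A1 had 162 FPKM with overexpression and 209 FPKM with the control plasmid, COL1A2 had 2.99 FPKM with overexpression and 3.53 FPKM with the control plasmid, and DCN had 21.1 FPKM with overexpression and 15.1 FPKM with the control plasmid.

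SDHD was the complex II gene that differed most between the libraries. It was 7.34-fold higher in the overexpression library, while SDHB, SDHC, SDHAF1 and SDHAF4 had ratios whose intervals include 1. SDHAF3 was 2.14-fold higher, SDHA was lower at 0.778 of its control level, and SDHAF2 was below 1 FPKM in both libraries. Of the 8 genes, 7 had a mean FPKM of at least 1, the level set for counting. Among these, 1 gene, SDHD, was at least 2-fold higher in FPKM + 1 and 0 were at least 2-fold lower, against 11.9% of all 11945 genes past the same level that were higher and 0.444% that were lower. SDHD passed the 2-fold limit at 5.25-fold and SDHAF3 fell just short of it at 1.95-fold. The median log2 ratio of the 7 genes was -0.03, against 0.10 over all genes past the level. Of the 7, 2 were above 0 and 5 below, beside 55.4% of all genes past the level above 0. Every log2 ratio of FPKM would be lower by 0.21 when scaled to the median of ratios, by 0.21 with TMM, a trimmed mean, and by 0.42 with the upper quartile, with SDHD and SDHAF3 still above 0. With upper-quartile scaling 4.88% of all genes were higher and 3.89% lower. In bulk RNA a lower level in every cell and fewer cells with that RNA cannot be told apart.

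**Figure D1:**
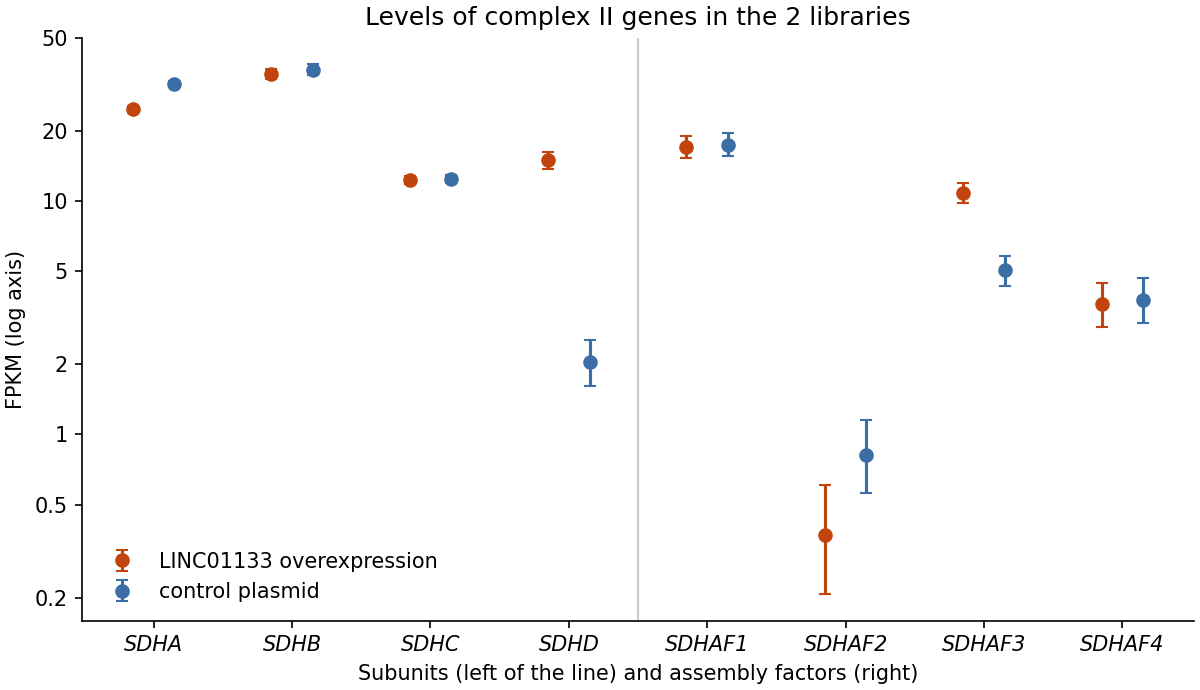
FPKM of the 8 complex II genes on a log axis, in the LINC01133 overexpression library (orange, left of each pair) and the control plasmid library (blue, right), 1 library each. Bars are exact 95% Poisson intervals of counting error, and SDHD, with 14.9 FPKM with overexpression against 2.04 FPKM with the control plasmid, and SDHAF3, with 10.8 FPKM with overexpression against 5.04 FPKM with the control plasmid, show the widest gaps upward.

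SDHA (ENSG00000073578; chr5:218241-256700 on GRCh38, plus strand) encodes the flavoprotein. Its level was 24.7 FPKM (23.9 to 25.6) in the overexpression library, against 31.8 FPKM (30.9 to 32.8) in the control library, from 3381 and 4178 fragments. The overexpression library was the lower one and the intervals do not overlap. The ratio of FPKM was 0.778 (0.743 to 0.814), and on FPKM + 1 the log2 ratio was -0.35. CCDC127, whose start lies 26 bases from that of SDHA on the opposite strand, had 2.05 FPKM with overexpression and 2.01 FPKM with the control plasmid, a ratio of 1.02 (0.870 to 1.20). AC021087.2, which starts 962 bases from SDHA, rested on 3 fragments with overexpression and 7 with the control plasmid.

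SDHA has near-identical copies elsewhere in the genome, and how fragments with more than 1 matching place were counted is not given in the sources used here. A stretch of 90 bases of SDHA coding sequence, from base 1260 to base 1349 counted from the start codon, is set beside the same stretch of its annotated pseudogenes, to show how few bases can assign a fragment. The sequences come from GENCODE release 29 transcripts, 5′ to 3′, and capitals mark bases that differ from SDHA.
SDHA: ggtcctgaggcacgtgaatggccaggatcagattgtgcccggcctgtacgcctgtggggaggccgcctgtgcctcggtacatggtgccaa
SDHAP1: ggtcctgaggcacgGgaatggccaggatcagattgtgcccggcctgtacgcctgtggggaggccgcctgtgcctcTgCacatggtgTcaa
SDHAP2: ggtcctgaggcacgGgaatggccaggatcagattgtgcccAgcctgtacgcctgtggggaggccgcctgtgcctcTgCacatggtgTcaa
SDHAP3: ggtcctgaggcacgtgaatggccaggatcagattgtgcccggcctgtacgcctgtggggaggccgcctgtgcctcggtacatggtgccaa
SDHAP3 is identical to SDHA over this stretch, SDHAP1 differs at 4 bases and SDHAP2 at 5.

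Over the coding sequence as a whole, SDHAP1 was 95.7% identical to SDHA across 1986 aligned bases, with 86 differences. Of the 1943 windows of 50 bases in the SDHA coding sequence, 494 (25.4%) occurred letter for letter in a transcript of another gene. SDHAP1 had 4.35 FPKM with overexpression and 4.45 FPKM with the control plasmid, from 238 and 234 fragments, a ratio of 0.977 (0.813 to 1.18). SDHAP3 had 0.837 FPKM from 16 fragments with overexpression and 0.435 FPKM from 8 fragments with the control plasmid. The 2 other genes that hold windows of SDHA and have values were higher with overexpression. AC132008.2 had 6.50 FPKM with overexpression and 3.68 FPKM with the control plasmid, a ratio of 1.76 (1.48 to 2.11), and MUC20-OT1 had 1.04 FPKM with overexpression and 0.649 FPKM with the control plasmid. SDHAP2 was not analysed here beyond its sequence.

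SDHB (ENSG00000117118; chr1:17018722-17054170, minus strand), the iron-sulfur subunit, had the highest FPKM of the family in both libraries. It reached 35.0 FPKM (33.2 to 36.9) with overexpression and 36.6 FPKM (34.7 to 38.5) with the control plasmid, from 1404 and 1411 fragments. The intervals overlap. The ratio of FPKM was 0.956 (0.887 to 1.03), and on FPKM + 1 the log2 ratio was -0.06. None of the windows of 50 bases of its transcript occurred in a transcript of another gene.

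SDHC (ENSG00000143252; chr1:161314257-161375340, plus strand), the larger membrane anchor, had 12.3 FPKM (11.9 to 12.8) in the overexpression library, against 12.4 FPKM (12.0 to 12.9) in the control library. The levels rest on 2844 and 2756 fragments and their intervals overlap. Their ratio was 0.992 (0.941 to 1.05), and on FPKM + 1 the log2 ratio was -0.01. CFAP126, on the opposite strand, lies within SDHC and shares 774 bases of its exons, 5.47% of the merged SDHC exons, and was not analysed here. SDHC also has annotated pseudogenes, of which SDHCP2, SDHCP3 and SDHCP4 were 92.1%, 90.3% and 93.4% identical to it over 229, 236 and 241 aligned coding bases, and SDHCP1 was not analysed here.

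Of 401 coding windows of 50 bases, 126 (31.4%) of SDHC occurred in a transcript of another gene. The copies with values had few counted fragments beside SDHC. SDHCP2 had 0 fragments with overexpression and 1 with the control plasmid, and AC130689.1 had 2 with overexpression and 6 with the control plasmid.

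SDHD (ENSG00000204370; chr11:112086773-112120013, plus strand) encodes the smaller membrane anchor. Its level was 14.9 FPKM (13.8 to 16.2) in the overexpression library, against 2.04 FPKM (1.61 to 2.53) in the control library. The overexpression library was far above the control library and the intervals do not overlap. These values correspond to 611 and 80 fragments at an exon length of 2509 bases, the shortest length at which both came out whole. At the 2838 bases of GENCODE release 29 they did not. SDHD was thus 7.34-fold higher in FPKM (5.81 to 9.39), with a log2 ratio of 2.39 on FPKM + 1. By log2 ratio SDHD ranked 36 of the 11945 genes past the level, and 13 of the 10335 protein-coding genes among them.

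Among the annotated pseudogenes that were aligned, SDHDP6, on chromosome 1, was the closest copy of any subunit over the aligned coding bases. It was 98.3% identical to SDHD across all 477 coding bases, with 8 differences. SDHDP2, on chromosome 7, was 95.9% identical with 19 differences, and SDHDP1, on chromosome 18, was 91.1% identical with 42. Coding bases 9 to 98 are shown because SDHD RNA and RNA of these copies can be told apart there only at the capitals, which mark bases that differ from SDHD.
SDHD: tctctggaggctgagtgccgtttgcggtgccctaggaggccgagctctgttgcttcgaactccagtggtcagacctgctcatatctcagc
SDHDP6: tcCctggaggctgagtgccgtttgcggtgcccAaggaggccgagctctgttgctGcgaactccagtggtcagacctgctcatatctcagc
SDHDP2: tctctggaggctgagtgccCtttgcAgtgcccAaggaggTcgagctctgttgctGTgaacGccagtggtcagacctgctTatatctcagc
SDHDP1: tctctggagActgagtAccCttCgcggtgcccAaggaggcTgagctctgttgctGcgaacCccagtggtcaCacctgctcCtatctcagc
Over this stretch the copies differ from SDHD at 3, 8 and 10 bases, in the order printed.

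Of the 428 coding windows of 50 bases in SDHD, 377 (88.1%) occurred letter for letter in a transcript of another gene, but only 27.7% of the windows of the whole transcript did. The gene with the most of these windows, 270 of the whole transcript, was AP002884.3. It overlaps SDHD on the same strand and is not a copy elsewhere in the genome, so these shares are not those of distant copies alone. SDHDP6 had 2.04 FPKM with overexpression and 1.99 FPKM with the control plasmid, from 16 and 15 fragments, a ratio of 1.03 (0.475 to 2.23). The interval of this ratio lies below that of SDHD, and its 16 fragments with overexpression stand beside 611 of SDHD. In the control library its 15 fragments stand beside 80 of SDHD, and the FPKM of SDHDP6 and SDHD were nearly equal there, at 1.99 and 2.04. AL031284.1, another gene that was not aligned, holds 192 windows of the SDHD transcript, against 174 in SDHDP6, and was listed at 0 in both libraries. The levels of SDHDP1, SDHDP2 and AC007849.2 were not analysed here. The part that fragments shared with copies play in the SDHD values was not tested.

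SDHD starts head to head with TIMM8B, which encodes a chaperone of the mitochondrial intermembrane space and is read from the minus strand. A fragment of unknown strand from their outermost exons could come from either gene where these overlap, and the strand setting is not given in the sources used here. The exons share the 26 bases at chr11:112086773-112086798, printed on the strand of SDHD.
SDHD and TIMM8B: gacgggtgtgcaccgcctctcgactt
TIMM8B had 18.7 FPKM in the overexpression library, against 26.4 FPKM in the control library, from 355 and 482 fragments. It was lower with overexpression, with a ratio of 0.708 (0.615 to 0.813), while SDHD on the other side of the shared start was higher. AP002884.3 lies on the strand of SDHD and shares 319 bases of its exons, 11.2% of the merged SDHD exons, and its level was not analysed here. Among all genes past the level that share at least 10% of their exon bases with another gene on the same strand, 57 of 561 (10.2%) were at least 2-fold higher, against 1258 of 10337 (12.2%) of those that share none.

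**Figure D2:**
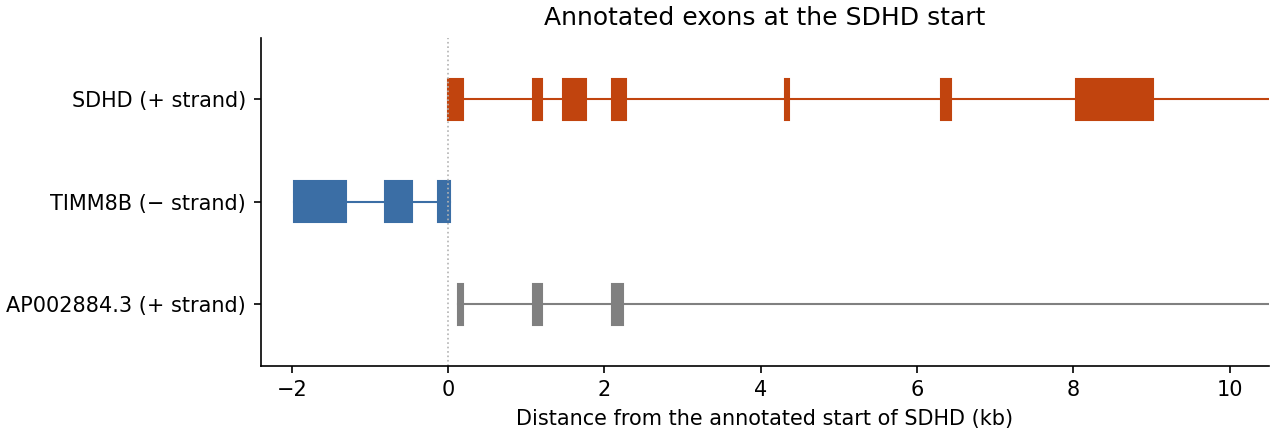
Annotated exons (boxes) of SDHD, TIMM8B and AP002884.3 from GENCODE release 29, by distance in kb from the annotated start of SDHD, with lines for introns; SDHD and AP002884.3 run past the right edge. TIMM8B overlaps SDHD over 26 bases at the start, and AP002884.3 shares 319 exon bases with SDHD on the same strand.

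The genes nearest to SDHD by their 2 levels, taken as the distance in log2(FPKM + 1) over the 2 libraries among 10335 protein-coding genes, included SMIM15, TPD52, SMC4 and ZRANB2. SMIM15 had 14.3 FPKM with overexpression and 2.25 FPKM with the control plasmid, at a distance of 0.12 from SDHD. TPD52 had 14.0 FPKM with overexpression and 1.86 FPKM with the control plasmid, at a distance of 0.12. SMC4 had 14.7 FPKM with overexpression and 2.63 FPKM with the control plasmid, at a distance of 0.26. ZRANB2 had 13.3 FPKM with overexpression and 2.52 FPKM with the control plasmid, at a distance of 0.26. Their higher levels with overexpression follow from how they were picked. These 4 genes had transcripts of lower GC content than SDHD, from 36.0% to 37.3% against 41.0%.

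SDHAF1 (ENSG00000205138; chr19:35995199-35996315, plus strand), which acts in the iron-sulfur maturation of SDHB, was the most abundant assembly factor. It had 17.1 FPKM (15.2 to 19.1) with overexpression and 17.4 FPKM (15.5 to 19.5) with the control plasmid, from 311 and 305 fragments. The intervals overlap, the ratio was 0.980 (0.834 to 1.15) on FPKM, and the log2 ratio of FPKM + 1 was -0.03. SDHAF3 (ENSG00000196636; chr7:97116590-97181763, plus strand), which acts on SDHB as well, had 10.8 FPKM (9.76 to 11.9) with overexpression, against 5.04 FPKM (4.34 to 5.83) with the control plasmid. These levels rest on 405 and 182 fragments. The overexpression library was the higher one and the intervals do not overlap. The ratio was 2.14 (1.79 to 2.56), while the log2 ratio of FPKM + 1 was 0.96, under the 2-fold limit. Neither SDHAF1 nor SDHAF3 shared a window of 50 bases with a transcript of another gene.

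SDHAF4 (ENSG00000154079; chr6:70566917-70589569, plus strand), the factor that binds flavinylated SDHA, had 3.62 FPKM (2.89 to 4.48) with overexpression and 3.77 FPKM (3.01 to 4.66) with the control plasmid. Each level rests on 85 fragments and the intervals overlap. Their ratio was 0.961 (0.703 to 1.31), and on FPKM + 1 the log2 ratio was -0.05.

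SDHAF2 (ENSG00000167985; chr11:61430042-61447529, plus strand), the flavinylation factor, was the lowest of the family in both libraries and did not reach a mean FPKM of 1. It had 0.369 FPKM (0.207 to 0.609) with overexpression, against 0.820 FPKM (0.561 to 1.16) with the control plasmid, from 15 and 32 fragments. The overexpression library was the lower one, with a ratio of 0.450 (0.227 to 0.856) and a log2 ratio of -0.41 on FPKM + 1, although the intervals of the levels overlap. All 449 coding windows of 50 bases of SDHAF2 (100%) also occurred in transcripts of AP003108.2, a gene on the same strand that shares 759 exon bases, 30.5% of those of SDHAF2. AP003108.2 rested on 8 fragments with overexpression and 2 with the control plasmid. How fragments shared by overlapping genes were counted, and on which strand, is not given in the sources used here, so the low level of SDHAF2 is uncertain. CPSF7, which encodes a subunit of the mRNA cleavage machinery and starts 11 bases from SDHAF2 on the opposite strand, had 21.6 FPKM with overexpression and 25.6 FPKM with the control plasmid, a ratio of 0.842 (0.794 to 0.893).

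The balance among the subunits differed between the libraries, most of all in SDHD. By FPKM the order in the overexpression library was SDHB, SDHA, SDHAF1, SDHD, SDHC, SDHAF3, SDHAF4 and SDHAF2. In the control library SDHD came lower, after SDHB, SDHA, SDHAF1, SDHC, SDHAF3 and SDHAF4 and before SDHAF2. SDHD stood at 0.427 of the SDHB level in the overexpression library and at 0.0556 of it in the control library. SDHA moved the other way, at 0.707 of the SDHB level in the overexpression library and 0.870 of it in the control library. With the GC content and length trends described below subtracted, the log2 ratios of SDHA and SDHB came to 0.01 and 0.03. The 4 subunits summed to 87.0 FPKM with overexpression and 82.9 FPKM with the control plasmid. Without SDHD the order of the sums turned, with 72.0 FPKM for SDHA, SDHB and SDHC with overexpression and 80.8 FPKM with the control plasmid. The assembly factors summed to 31.9 FPKM with overexpression and 27.1 FPKM with the control plasmid. The 8 genes together held 9056 fragments in the overexpression library and 9029 in the control library.

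Levels between genes depend on the exon length they are divided by, which for SDHC is 14160 merged bases against 1127 bases of its transcript paired with RefSeq. Per length of the RefSeq transcripts, SDHC came out highest, with 155 FPKM in the overexpression library and 156 FPKM in the control library. The fragments were still those counted over all merged exons, not those of the RefSeq transcript alone. These levels can therefore be too high where the merged exons are much longer, as in SDHC. SDHA followed with 86.8 FPKM with overexpression and 112 FPKM with the control plasmid, and SDHB with 74.7 FPKM with overexpression and 78.1 FPKM with the control plasmid. SDHD had 26.0 FPKM with overexpression and 3.55 FPKM with the control plasmid on this scale, the lowest of the subunits in both libraries. The ratios between the libraries are the same on either length.

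Base composition moved with the difference between the libraries over all genes. The log2 ratio was lower at higher GC content, with a Spearman correlation of -0.80 across 11913 genes, which share the same libraries and are no replicates. The tenth of genes lowest in GC, up to 38.7%, had a median log2 ratio of 1.14, and the tenth highest, from 62.3%, had -0.39. The transcripts of the 8 genes ran from 41.0% GC in SDHD to 63.4% in SDHAF1, so each is set beside genes within 1 percentage point of its own GC content.

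SDHD had a log2 ratio of 2.39, against a median of 0.75 and quartiles of 0.52 and 0.996 over 1015 genes of its GC content, 24.6% of which were at least 2-fold higher. SDHAF3, at 0.96, also lay above the quartiles of genes of its composition, 0.28 and 0.72. SDHC, at -0.01, and SDHAF4, at -0.05, lay below the lower quartiles of theirs, 0.36 and 0.29. For SDHC this holds at the 42.6% GC of its longest coding transcript, whereas at the 46.6% of the transcript paired with RefSeq it lay within the quartiles of genes of 46% to 48% GC, -0.02 and 0.42. SDHAF1, at -0.03, lay above the upper quartile of -0.23 of the GC-rich genes around it, SDHAF2, at -0.41, lay below the lower quartile of -0.03, and SDHA and SDHB lay within the quartiles.

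**Figure D3:**
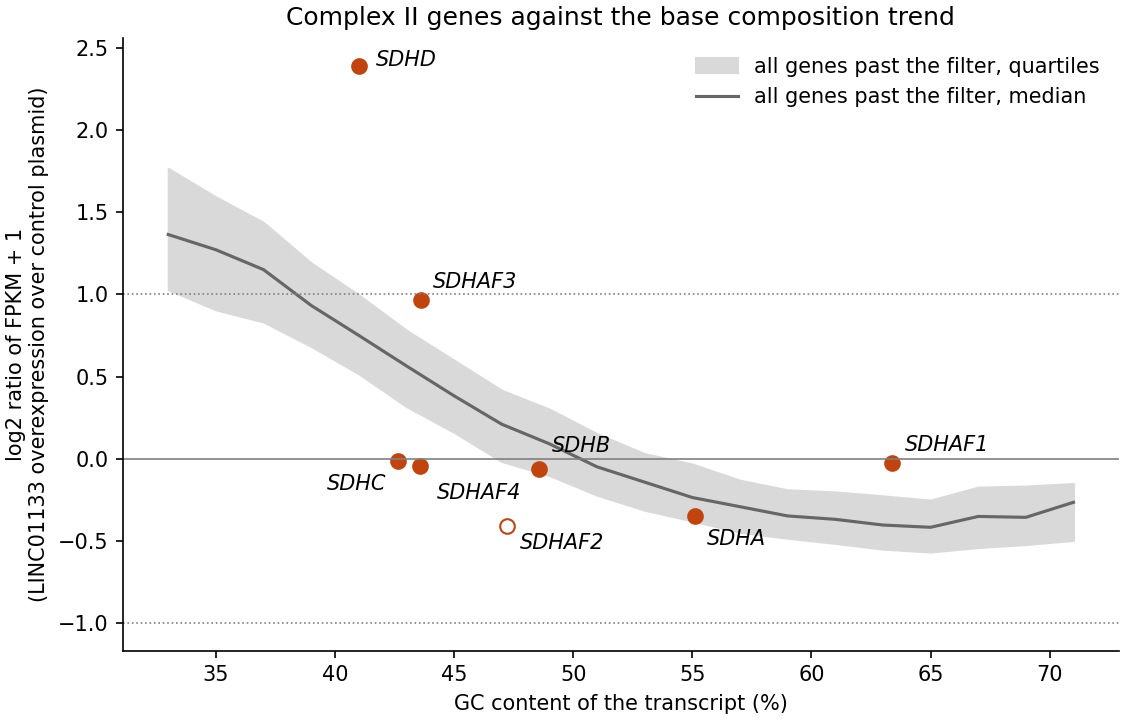
Log2 ratio of FPKM + 1, overexpression over control, against the GC content of the transcript for the 8 complex II genes (orange, open for SDHAF2, which is under the level for counting), with the median (line) and quartiles (band) of all genes past the level by GC content. SDHD at 2.39 and SDHAF3 at 0.96 lie above the band, SDHC (drawn at its longest coding transcript) and SDHAF4 below it, and SDHAF1 above it at the GC-rich end.

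When lowess trends on GC content and transcript length were subtracted, keeping the median over all genes, SDHD stayed at a log2 ratio of 1.83 and ranked 23 of 11913 genes. SDHAF3 came to 0.61, SDHAF1 to 0.56 and SDHAF4 to -0.35, while SDHA and SDHB came to 0.01 and 0.03. SDHC depended on the transcript taken, at -0.58 with the longest coding transcript, of 42.6% GC, and at -0.09 with the transcript paired with RefSeq, of 46.6% GC. With these trends subtracted, SDHD was again 1 gene of the 7 at least 2-fold higher, against 203 of 11913 genes (1.70%), and 0.764% of genes were lower. The 4 genes named as nearest to SDHD by level came to lower values, from 0.99 in ZRANB2 to 1.36 in TPD52.

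**Figure D4:**
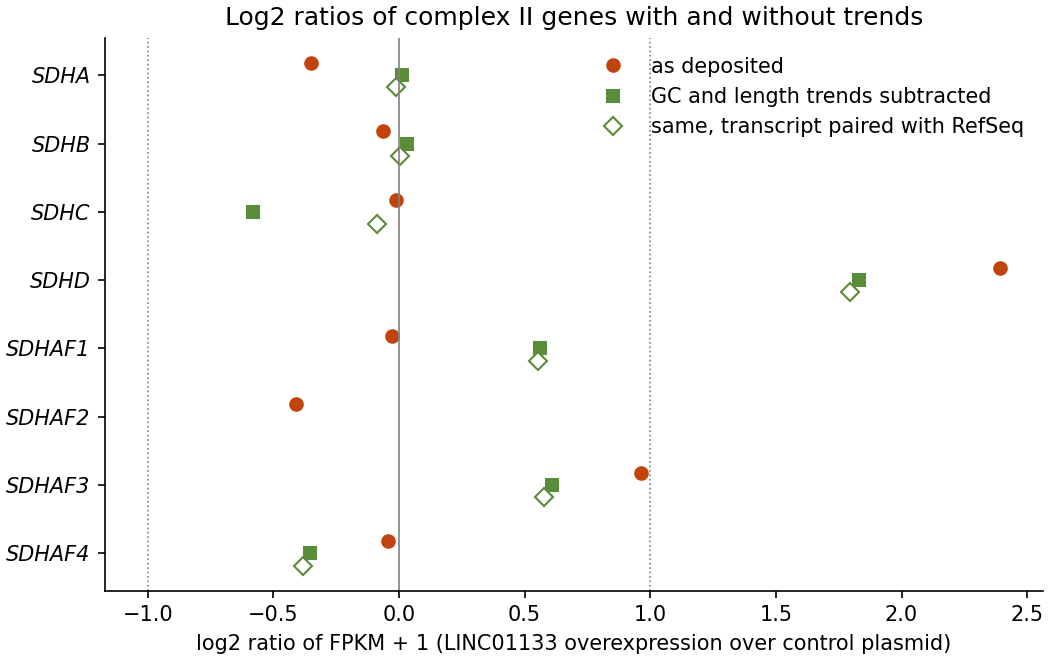
Log2 ratios of FPKM + 1, overexpression over control, of the 8 genes as deposited (circles), with GC content and length trends subtracted (squares), and with the same trends on the transcript paired with RefSeq (diamonds); SDHAF2 has the deposited value only. SDHD stays beyond the dotted 2-fold limit at 2.39, 1.83 and 1.79, and SDHA comes to about 0 with the trends subtracted.

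Genes around complex II were read from 7 lists with 73 genes in all, to set the SDH genes beside the steps that feed and use them. Among the 13 other enzymes of the tricarboxylic acid cycle, all past the level, 0 were 2-fold apart in either direction, against 11.9% of all genes higher and 0.444% lower. The median log2 ratio was -0.16, with 5 above 0 and 8 below, beside 55.4% of all genes above 0. Under each of the 3 other scalings 1 of the 13 was at least 2-fold lower. Of all genes, 0.896% were lower with TMM, 0.862% with the median of ratios and 3.89% with the upper quartile. SUCLA2, a subunit of the succinyl-CoA ligase that makes succinate, had 11.5 FPKM with overexpression, against 5.46 FPKM with the control plasmid. DLD, the dihydrolipoamide dehydrogenase of the 2-oxoglutarate complex, had 18.3 FPKM with overexpression and 9.35 FPKM with the control plasmid. Both were the highest of the list by log2 ratio. At the other end were IDH3G, a subunit of isocitrate dehydrogenase, with 24.6 FPKM with overexpression and 44.0 FPKM with the control plasmid, and MDH2, malate dehydrogenase, with 219 FPKM with overexpression and 324 FPKM with the control plasmid. SDHD at 2.39 was above the highest log2 ratio of this list, 0.95.

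The list of other dehydrogenases that reduce ubiquinone had 5 of 8 genes past the level, with a median log2 ratio of 0.16. GPD2, the mitochondrial glycerol-3-phosphate dehydrogenase, was the 1 gene at least 2-fold higher, with 10.3 FPKM with overexpression, against 3.88 FPKM with the control plasmid, and 0 were lower. That is 1 of 5 genes, beside 11.9% of all genes past the level. ETFDH, which takes electrons from fatty acid oxidation, had 4.25 FPKM with overexpression and 2.24 FPKM with the control plasmid. The choline dehydrogenase CHDH and the pyrimidine synthesis enzyme DHODH had log2 ratios of 0.00 and -0.03. Of the ubiquinone synthesis genes, 12 of 13 were past the level, 0 were 2-fold apart and the median was 0.02. The highest by log2 ratio were COQ10B, a ubiquinone-binding protein, with 4.91 FPKM with overexpression and 2.11 FPKM with the control plasmid, and PDSS1, which builds the ubiquinone tail, with 14.7 FPKM with overexpression and 9.34 FPKM with the control plasmid. The lowest were the methyltransferase COQ5, with 8.22 FPKM with overexpression and 10.6 FPKM with the control plasmid, and COQ8B, with 6.13 FPKM with overexpression and 9.30 FPKM with the control plasmid.

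The cofactors of SDHB and SDHA come from iron-sulfur cluster assembly and from flavin supply. Of 14 iron-sulfur assembly genes 13 had values, all 13 were past the level, 0 were 2-fold apart and the median log2 ratio was 0.00. With upper-quartile scaling 1 of the 13 was at least 2-fold lower, beside 3.89% of all genes. The mitochondrial chaperone HSPA9 had 119 FPKM with overexpression and 80.4 FPKM with the control plasmid, and ISCA1, which acts on late steps, had 20.3 FPKM with overexpression and 14.0 FPKM with the control plasmid. At the lower end, the cysteine desulfurase NFS1 had 3.56 FPKM with overexpression and 4.45 FPKM with the control plasmid, and ferredoxin reductase FDXR had 13.6 FPKM with overexpression and 21.7 FPKM with the control plasmid. Of the flavin genes, 4 of 6 were past the level, with a median of 0.07. RFK, riboflavin kinase, which makes FMN, was the 1 gene at least 2-fold higher, with 16.2 FPKM with overexpression, against 4.87 FPKM with the control plasmid, a log2 ratio of 1.55. That is 1 of 4 genes, beside the same 11.9% of all genes. The mitochondrial carrier SLC25A32 had 6.90 FPKM with overexpression and 4.30 FPKM with the control plasmid. FLAD1, which makes FAD from FMN, had 25.0 FPKM with overexpression and 34.1 FPKM with the control plasmid, and the riboflavin transporter SLC52A2 had 10.2 FPKM with overexpression and 14.6 FPKM with the control plasmid.

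Of 15 dioxygenases that succinate inhibits, 13 were past the level, 1 was at least 2-fold higher (7.69%, below the 11.9% of all genes), 0 were lower (0.444% of all genes), and the median log2 ratio was 0.03. TET1, a 5-methylcytosine dioxygenase, had 3.93 FPKM with overexpression, against 1.36 FPKM with the control plasmid, and EGLN1, the main HIF prolyl hydroxylase, had 8.05 FPKM with overexpression and 4.05 FPKM with the control plasmid. The histone demethylases KDM6B and KDM4B were the lowest by log2 ratio, KDM6B with 4.20 FPKM with overexpression and 6.55 FPKM with the control plasmid, and KDM4B with 4.36 FPKM with overexpression and 6.23 FPKM with the control plasmid. Of 4 succinate carriers and receptors, the dicarboxylate carrier SLC25A10 was the 1 gene past the level, at 1.78 FPKM with overexpression and 2.22 FPKM with the control plasmid. With the trends on GC content and length subtracted, 0 genes of these lists were at least 2-fold apart. Of all genes only 1.70% were higher and 0.764% lower under that setting. RFK came to 0.70 and GPD2 to 0.43.

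**Figure D5:**
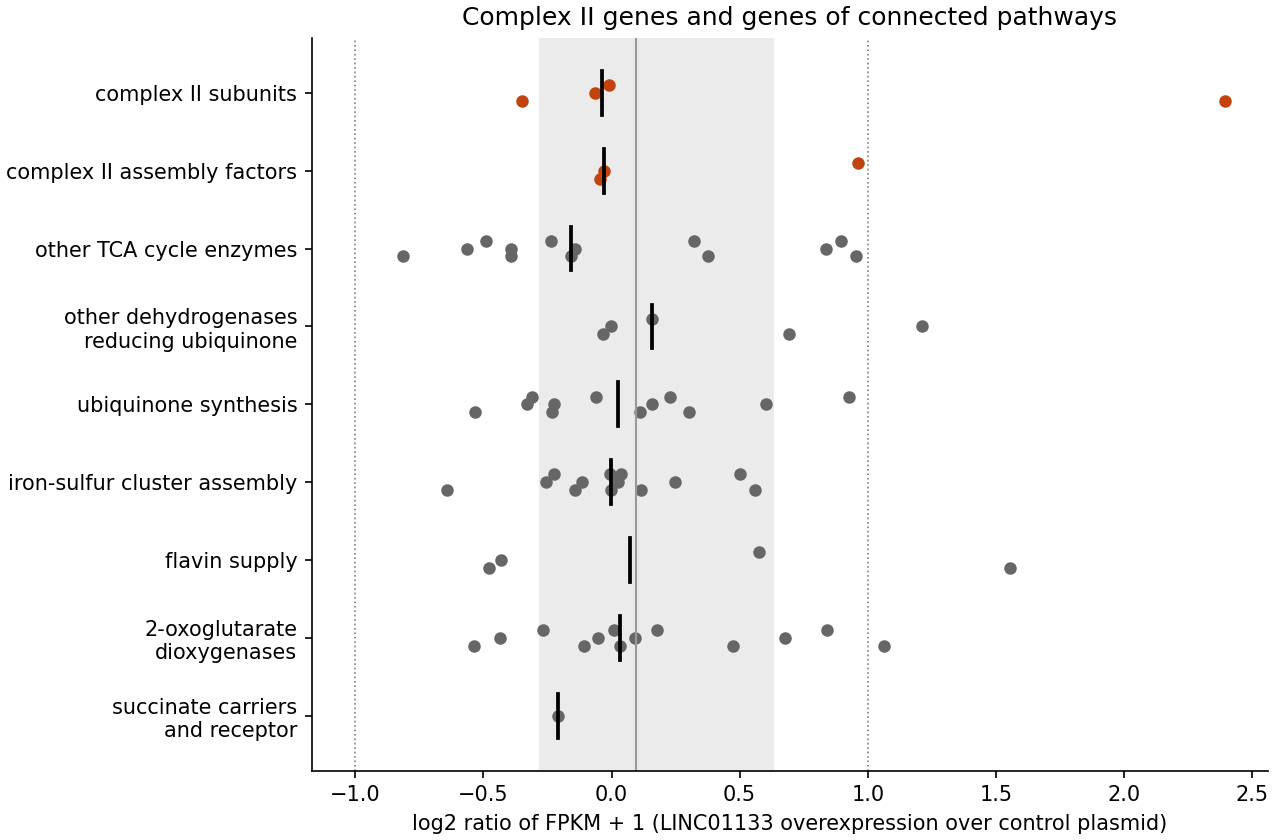
Log2 ratio of FPKM + 1, overexpression over control, of each gene past the level in the complex II groups (orange) and 7 connected lists (grey), with the median of each group as a black bar, the median (line) and quartiles (band) of all genes past the level, and dotted 2-fold limits. SDHD at 2.39, RFK at 1.55, GPD2 at 1.21 and TET1 at 1.06 lie beyond the upper limit, and no gene shown lies beyond the lower limit.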

How the data were processed

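For each gene the authors deposited a single value per library. Per the labels' protocols, RNA was extracted with Trizol, selected on poly-T beads and prepared with a NEBNext Ultra kit. The submitters' processing notes list HISAT2 2.1.0, Bowtie2 2.2.3 and HTSeq 0.6.0, with the build GRCh38. What each tool did, the annotation release and the strand setting are not given in the sources used here. The labels do not name the unit, and the deposited values were read as FPKM because, multiplied by the merged exon length of GENCODE release 29, they gave whole fragments, within 0.02 of a fragment, for 94.4% of genes with a length in the overexpression library and 94.5% in the control library. Those steps gave the depth and the fragments per gene. SDHD and some others did not come out whole at that length. For these the shortest length at which both values were whole was taken, and longer ones were not examined. Their fragments and intervals rest on that choice.

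Ratios used a pseudocount of 1, and only genes whose mean FPKM reached 1 were counted. With 1 library per group no test was run and no p-value computed. Intervals are exact Poisson for a level and Clopper-Pearson of the conditional binomial for a ratio, at 95%. Fragments amplified without molecular identifiers are not independent molecules, so the intervals cover counting error only. GC content and length came from the longest coding transcript, and lowess had a span of 0.3. The scripts were tested on simulated data. Python 3.11.15, numpy 2.4.6, scipy 1.17.1, statsmodels 0.14.6 and Biopython 1.88 were used.

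The members, lists and alternatives were chosen with earlier results of these data known. Named genes were the members, LINC01133, annotated pseudogenes of a member, genes that share exon bases with a member or start within 1000 bases of it, the 5 protein-coding genes nearest to SDHD, and in each list those 2-fold apart and the 2 highest and 2 lowest. Of the 5 nearest genes, 1 is not reported here, nor are some sequences. AC132008.2, MUC20-OT1, AC130689.1 and AL031284.1, which hold windows of a member's transcript, were named after their values were seen, as were the marker genes with values. The alternatives were other scalings, filters, pseudocounts and fold limits, and the subtraction of trends.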

Additional observations from a re-analysis of the deposited data

How the results depend on the processing

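No paired analysis was possible because 1 library per group leaves no pairs. SDHD was at least 2-fold higher in all 8 alternatives that give it a log2 ratio, from 1.79 to 2.82. Among these, a mean FPKM of at least 5 and no filter only change which genes are kept. They leave SDHD at 2.39 and could not move it. The number of complex II genes at least 2-fold higher was 2 with a pseudocount of 0.1 and 2 at a 1.5-fold limit, where SDHAF3 joined SDHD. It was 1 under the other 8 alternatives. Of all genes, 18.8% were higher with that pseudocount and 26.8% at that limit. The number of complex II genes lower was 0 in all 10. The median log2 ratio was -0.40 with upper-quartile scaling, which lowers all ratios by 0.42, and -0.21 and -0.20 with trimmed mean of M values and median of ratios, which lower them by 0.21. With trends subtracted it was 0.03, a turn of sign, as in SDHA (0.01), SDHB (0.03) and SDHAF1 (0.56). With the trends on the transcript paired with RefSeq, SDHA kept its sign at -0.01, SDHAF1 was 0.55, and SDHB and the median were both 0.0021.

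Over all genes, 1421 were higher and 53 lower as reported. The counts were 923 and 107 with trimmed mean of M values, 941 and 103 with median of ratios, 583 and 465 with upper-quartile scaling, 2244 and 127 with a pseudocount of 0.1, 656 and 10 at a mean FPKM of at least 5, 3199 and 632 at 1.5-fold, 92 and 8 at 4-fold, and 203 and 91 with trends subtracted. In the connected lists, the counts of genes higher ranged from 0 to 3 over the alternatives, with 3 at the 1.5-fold limit, where 26.8% of all genes were higher. The count lower reached 1 in the tricarboxylic acid cycle list under the 3 other scalings and at 1.5-fold. It reached 1 in iron-sulfur assembly with upper-quartile scaling and at 1.5-fold. Of all genes, 0.896% were lower with trimmed mean of M values, 0.862% with median of ratios, 3.89% with upper-quartile scaling and 5.29% at 1.5-fold. Depth limits SDHAF2 most, with 15 and 32 fragments in the overexpression and control libraries.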
